A study of Mus musculus with 2 samples.

Results

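The 894 regions described here are DNase-hypersensitive peaks of the embryonic mouse midbrain that lie away from annotated transcript starts and have the base composition of a CpG island. Each was a replicate 2 peak that overlapped a replicate 1 peak by at least 1 bp, lay on chromosomes 1 to 19, had its centre over 2000 bp from every annotated transcript start of any gene type, overlapped no annotated exon, and held 65% or more G and C and 8 or more CpG dinucleotides in the 150 bp around its centre (mm10). They are called GC-rich distal peaks below. They made up 0.804% (95% exact binomial interval 0.752 to 0.858) of the 111233 shared autosomal peaks that met the same conditions on distance and exons, and 0.534% of all 167363 shared autosomal peaks. No peak value entered the choice, beyond the requirement of a peak in both replicates.

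The tissue was the whole midbrain of B6NCrl mouse embryos at day 14.5, pooled from males and females and described as healthy. There was 1 group of 2 biological replicates, and no treatment, mutant or control tissue. DNase-seq reads the places where the nuclease DNase I cuts the DNA of nuclei, which are dense where DNA is not wrapped in nucleosomes. Replicate 1 had 710176 peaks and replicate 2 had 267958, and the read depth of neither is known.

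A CpG island is a stretch of DNA rich in G and C that has kept its CpG dinucleotides, most of which are lost elsewhere in the mammalian genome because the methylated cytosine mutates easily. Most islands lie at gene starts, are unmethylated and lack stable nucleosomes in many tissues. Orphan CpG islands are those far from annotated starts. Some are starts of transcripts missing from an annotation, and others lie beside developmental genes, where islands are known to recruit Polycomb complexes and act as parts of enhancers.

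The following 150 bp sequences show the range of what was open. They are the 3 peaks with the highest mean rank of their values, the peak with the most CpG, the highest-ranked peak nearest a developmental transcription factor gene, and for comparison the highest-ranked distal peak that is as rich in G and C but has fewer than 8 CpG. Each is the plus strand of mm10 (GRCm38.p6), written 5′ to 3′ in lower case with every CpG in capitals, and each is named by the protein-coding gene with the nearest annotated start.
Trappc9, chr15:73067556-73067705: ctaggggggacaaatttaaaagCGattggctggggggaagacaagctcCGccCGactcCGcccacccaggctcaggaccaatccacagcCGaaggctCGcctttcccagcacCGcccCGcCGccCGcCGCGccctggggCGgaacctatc
Ptma, chr1:86487456-86487605: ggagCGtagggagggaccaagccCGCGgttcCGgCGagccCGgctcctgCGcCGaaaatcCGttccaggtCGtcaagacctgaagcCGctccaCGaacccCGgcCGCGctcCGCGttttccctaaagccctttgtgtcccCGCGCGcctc
Wnt7b, chr15:85634616-85634765: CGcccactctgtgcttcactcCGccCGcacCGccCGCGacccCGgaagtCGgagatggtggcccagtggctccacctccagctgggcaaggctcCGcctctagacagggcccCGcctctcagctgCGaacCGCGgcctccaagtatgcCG
Lmx1a, chr1:167803056-167803205: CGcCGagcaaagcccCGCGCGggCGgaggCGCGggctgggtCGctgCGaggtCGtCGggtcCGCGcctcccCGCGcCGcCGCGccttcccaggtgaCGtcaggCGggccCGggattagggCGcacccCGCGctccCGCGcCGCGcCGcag
Nfib, chr4:82513216-82513365: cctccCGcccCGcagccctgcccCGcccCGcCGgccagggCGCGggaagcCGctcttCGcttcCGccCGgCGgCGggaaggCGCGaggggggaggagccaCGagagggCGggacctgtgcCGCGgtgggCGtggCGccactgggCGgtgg
Mvb12b (comparison), chr2:33876656-33876805: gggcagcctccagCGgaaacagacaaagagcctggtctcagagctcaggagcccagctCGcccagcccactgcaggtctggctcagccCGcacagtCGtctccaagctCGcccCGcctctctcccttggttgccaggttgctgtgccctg

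The first 3 sequences hold 13, 20 and 14 CpG, the Lmx1a sequence 30, the Nfib sequence 22 and the comparison 6. The Lmx1a and Nfib windows are both 82.0% G and C. The other 4 lie between 66% and 70.7%, so windows of nearly the same GC content differ more than 3-fold in CpG.

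GC-rich distal peaks were strong peaks. The value that the authors gave each peak is a whole number of at most 150, not scaled between libraries, so it is read within a replicate only. In replicate 1 it ran from 3 to 130 over the 894 peaks, with a median of 48 and quartiles of 28 and 73.8. In replicate 2 it ran from 25 to 149, with a median of 113 and quartiles of 90 and 129. The other 110339 distal peaks had medians of 17 and 58. The median GC-rich distal peak thus stood at the 90.3 percentile of all distal peaks in replicate 1 and the 94.2 percentile in replicate 2. The ranges of the 2 sets overlapped almost fully in both libraries. With 1 group of 2 samples there is no test across samples, so differences between kinds of region are given with their spread and as found in each replicate.

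**Figure D1:**
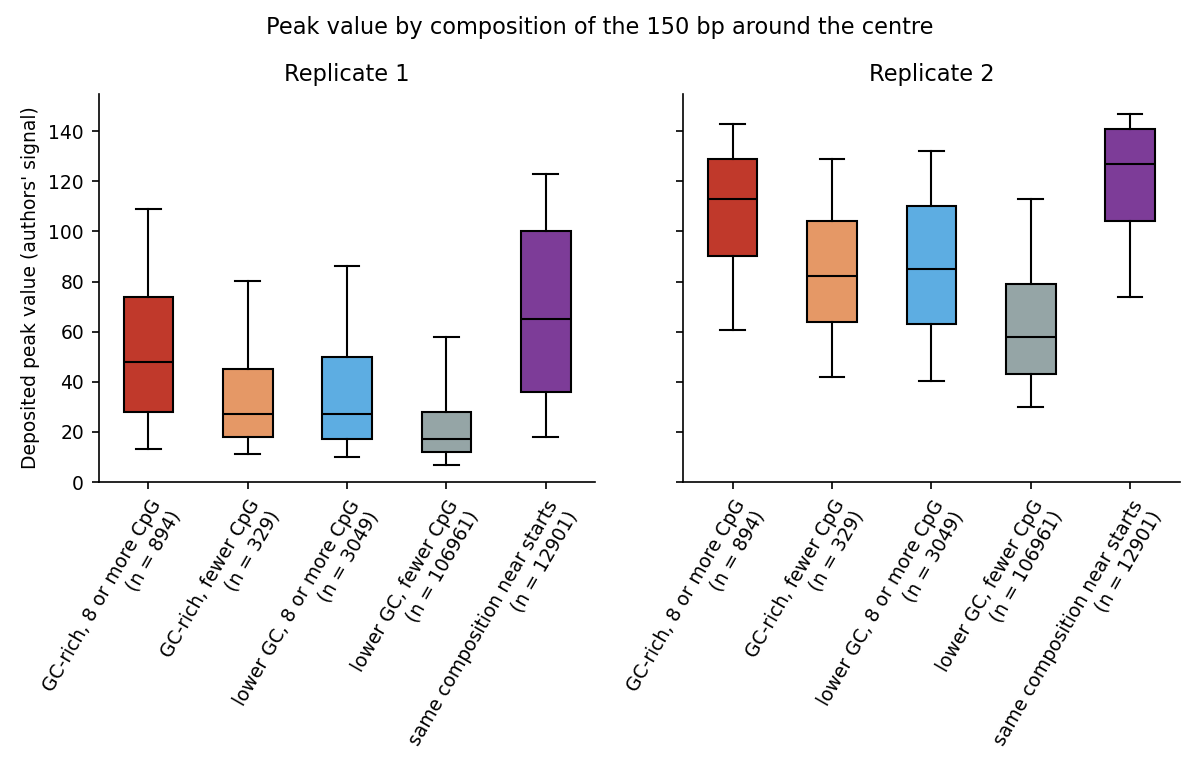
Deposited peak value (vertical axis, no unit) in each replicate for 4 composition classes of distal peaks and for peaks of the GC-rich, CpG-rich composition within 1000 bp of a start. Boxes span the quartiles around the median and whiskers the 5th to 95th percentiles. GC-rich distal peaks had medians of 48 and 113, above the other 3 distal classes and below the peaks near starts (65 and 127).

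Both parts of the composition rule went with higher values. The 329 distal peaks with 65% or more GC but fewer than 8 CpG had medians of 27 in replicate 1 and 82 in replicate 2. The 3049 with 8 or more CpG but a lower GC content had 27 and 85. Peaks with neither had 17 and 58, so each feature alone went with an intermediate value. Among the GC-rich distal peaks themselves the medians were 31 and 91 at 8 or 9 CpG, 50 and 114 at 12 or 13, and 61 and 123 at 20 to 30.

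Values did not jump at the limits of the rule. The 247 peaks just above 65% GC had medians of 39 and 103, and the 308 just below it, with 8 or more CpG, had 40 and 104. At 8 CpG (69 peaks) the medians were 30 and 87, and at 7 CpG (61 peaks) 27 and 85. Peaks up to 500 bp inside the distance limit (59) had 50 and 113, and peaks up to 500 bp short of it (98) had 42 and 107. Moving the GC limit changes how many peaks qualify more than it changes their rank: 1799 peaks qualified at 60% and 403 at 70%, and 549 when composition was taken over 300 bp.

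Of the GC-rich distal peaks, 641 (71.7%, interval 68.6 to 74.6) were in the top 25% of all distal peaks in both replicates, at values above 29 and 81. The same held for 20.5% of all distal peaks. The class with high GC but fewer CpG reached 41.3% and the class with more CpG but lower GC 44.3%. The exact binomial intervals of these shares cover counting error over regions only.

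**Figure D2:**
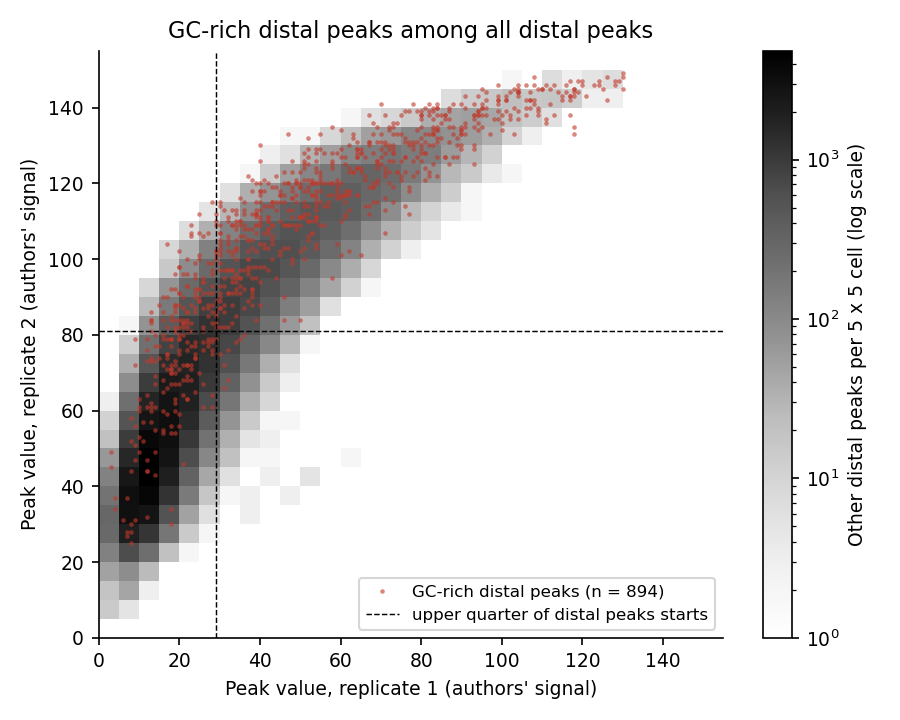
Peak value in replicate 1 (horizontal axis) against replicate 2 (vertical axis), as deposited, for each of the 894 GC-rich distal peaks (red) over the density of the other distal peaks (grey, log colour scale). The dashed lines mark 29 and 81, the lower limits of the top 25% of distal peaks, and 641 red points lie above both.

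Hotspots, the broader regions of enrichment that the authors called, gave a second measure of the same libraries. Hotspots around GC-rich distal peaks had a median width of 745 bp in replicate 1 and 1146 bp in replicate 2, against 307 and 334 bp for the other distal peaks. The hotspot's −log10 q stood at the cap of 100 in both replicates for 638 GC-rich distal peaks (71.4%), against 31.6% of all distal peaks. It did so for 45.6% of peaks with high GC but fewer CpG and 51.9% of those with more CpG but lower GC. Both of these classes also had median hotspot widths between the widths given above, in each replicate. Below the cap the deposited values reach only 6, so the −log10 q separates hotspots into those at the cap and the rest. The 894 peaks fell into 813 replicate 2 hotspots, of which 742 held 1, 61 held 2 and 10 held 3. Neighbouring peaks in a hotspot share their reads and are not independent.

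GC-rich distal peaks were also found again more often. Of the 1070 peaks of this kind in replicate 2, 894 (83.6%) overlapped a replicate 1 peak, against 62.1% of other distal peaks. Of the 942 in replicate 1, 866 (91.9%) overlapped a replicate 2 peak, against 20.6%. The 2 replicates ranked the 894 peaks alike, with a Spearman correlation of 0.94 over peaks that share their libraries, against 0.859 over the other distal peaks.

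Peaks of the same composition close to starts were stronger still. The 12901 shared autosomal peaks within 1000 bp of a start that had 65% or more GC and 8 or more CpG had medians of 65 and 127. These peaks near starts could overlap exons, unlike the distal ones. They held more CpG, with a median of 17 against 14. At 8 or 9 CpG the peaks near starts had medians of 42 and 108 against 31 and 91 for distal ones. At 20 to 30 CpG they had 71 and 131 against 61 and 123. In each of the 6 CpG ranges, in both replicates, the distal median was the lower one, and the quartile ranges of the whole sets overlapped.

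The GC-rich stretch was narrower at distal peaks. Mean GC content was 70.8% in the 100 bp at the centre of the GC-rich distal peaks, 57.2% at 200 bp and 51.5% at 500 bp to the right. Near starts it was 72.8% at the centre and 64.1% at 200 bp. CpG fell from 9.89 per 100 bp at the centre of the distal peaks to 4.45 at 200 bp and 2.68 at 500 bp, while other distal peaks had 1.76 at their centre. At 2000 bp the surroundings of the GC-rich distal peaks were still richer in G and C (48.0%) than those of other distal peaks, which lay at 43.9% at 1900 bp.

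**Figure D3:**
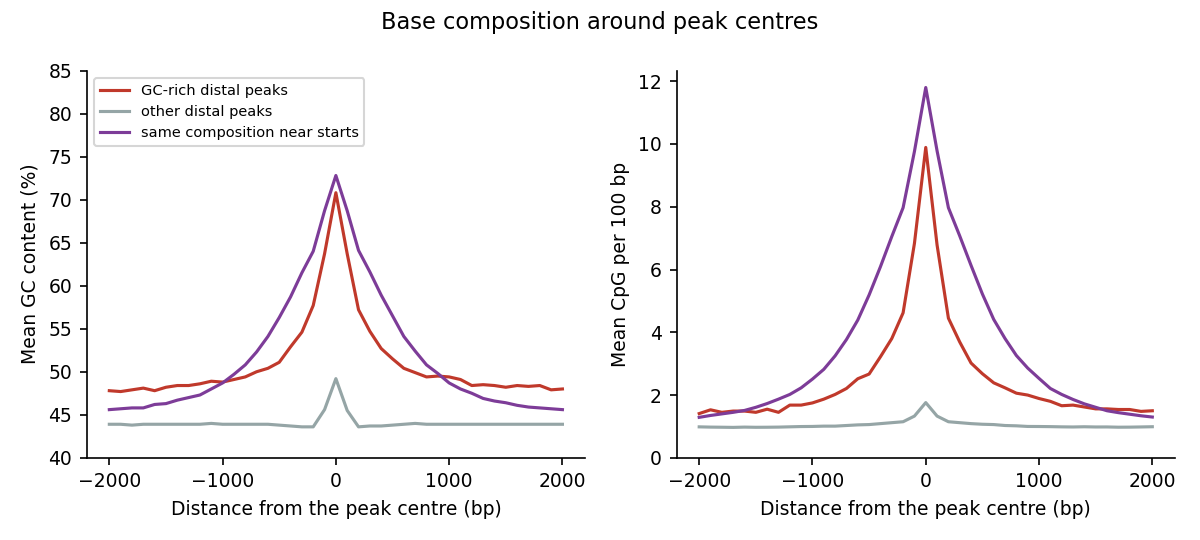
Mean GC content (left, %) and mean CpG per 100 bp (right) against the distance from the peak centre in bp, for GC-rich distal peaks (red), other distal peaks (grey) and peaks of the same composition within 1000 bp of a start (purple). The red peak reaches 70.8% GC and 9.89 CpG per 100 bp at the centre and falls faster than the purple one.

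The share of DNA that was open rose with CpG content. All autosomal sequence over 2000 bp from starts and outside exons was cut into tiles of 150 bp, leaving out tiles over 50% repeat-masked, and a tile counted as open when a shared peak covered at least 75 bp of it. Of 2848 tiles with the composition of the GC-rich distal peaks, 812 (28.5%, interval 26.9 to 30.2) were open, against 1.2% of all 9520725 tiles. Among tiles of 65% or more GC, 2.34% were open with 0 or 1 CpG, 14.7% with 6 or 7, 22.6% with 10 or 11 and 38.1% with 16 or more. Among tiles of lower GC content the share went from 0.649% with 0 or 1 CpG to 12.8% with 8 or 9 and 24.1% with 12 to 15. In each CpG range the GC-rich tiles had the higher open share, and in both GC classes the share rose with the CpG count. The intervals of the GC classes overlapped at 10 or 11 CpG (19.2 to 26.3 against 17.3 to 20.1). They also overlapped at 16 or more (34.6 to 41.7 against 20.3 to 41.3, the latter on 80 tiles).

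Repeats behaved otherwise. Of the 6975 tiles of the same composition that were over 50% repeat-masked, 3 were open (0.043%, interval 0.00887 to 0.126), and 2 of the 894 peaks (0.224%) lay over 50% in masked repeats, against 2.86% of all distal peaks. How reads with several matches in the genome were handled is unknown from the labels.

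CpG islands were located in the repeat-masked sequence as runs of frequent CpG over 200 bp long, with at least 50% GC and a CpG content over 0.6 of that expected from the base composition. Of the GC-rich distal peaks 552 (61.7%, interval 58.5 to 64.9) overlapped such an island, against 0.95% of all distal peaks. The composition rule favours islands by construction, so this share describes the set. Under a stricter definition of 500 bp, 55% GC and 0.65, it was 25.5%. The 552 in islands had median values of 52 and 117 and a median of 16 CpG, and the 342 outside islands had 39.5 and 105 and a median of 10 CpG, with quartile ranges that overlapped.

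The autosomes held 16510 islands, of which 1290 were orphans, lying over 2000 bp from any start and outside exons. A shared peak overlapped 770 orphan islands (59.7%, interval 57.0 to 62.4). A replicate 1 peak but no shared one lay in 44 more, and 401 (31.1%) had no peak in either replicate. In 433 orphan islands the peak was a GC-rich distal one. When islands were sought in sequence that still held repeats, the open share was 8.65%, so the figure of 59.7% refers to islands found in repeat-masked sequence.

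Longer and GC-richer orphan islands were more often open. Of those of 200 to 250 bp, 39.8% held a shared peak, of those of 250 to 300 bp 58.8%, and of those of 400 to 600 bp 76.8%. Above 600 bp the share stayed near that level, at 72.7% and 76%. Islands of 50 to 60% GC were open in 47.4% of cases and those of 70% or more in 75.2%. By construction, a longer island has more bases that a peak can overlap. Orphan islands between genes were open in 66.7% of 855 cases and those inside genes in 46.0% of 435.

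**Figure D4:**
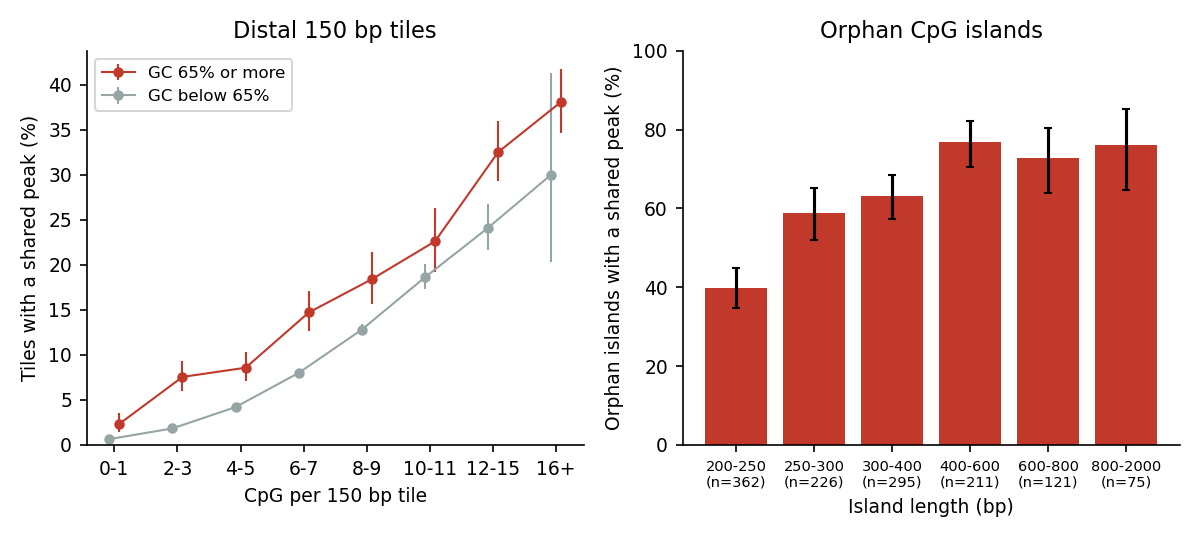
Left, share of distal 150 bp tiles overlapped by a shared peak (%) by the number of CpG in the tile, for tiles of 65% or more GC (red) and of lower GC (grey). Right, share of orphan CpG islands with a shared peak (%) by island length. Bars on points and columns are 95% exact binomial intervals, which cover counting error only, with GC-rich tiles going from 2.34% to 38.1%, and islands from 39.8% to 76.8% at 400 to 600 bp with no further rise above that length.

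The longest open orphan island was 1840 bp long with 174 CpG (chr1:78215958-78217797), 19744 bp from the nearest start of Pax3, a paired-box factor of the dorsal neural tube. It held 3 shared peaks with values of up to 54 and 118. Next came islands nearest Spag6, a gene of the ciliary axoneme (1793 bp, values of up to 63 and 132), and Ppara, a nuclear receptor of lipid metabolism (1768 bp, up to 79 and 139). Islands nearest Shank2, a scaffold of excitatory synapses (1557 bp), and Tln2, a talin of cell adhesion (1521 bp), followed. The shared peaks covered only a part of each of these islands.

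Length alone did not go with openness in every case. The longest orphan island without a shared peak, 1623 bp with 97 CpG (chr9:121040808-121042430), lay inside Ulk4 and had no peak in either replicate. The next, 1372 bp with 94 CpG and 7376 bp from the nearest start of Hoxa13, a homeobox gene of the limb and hindgut, had 5 peaks in replicate 1, none with a value over 23, and none in replicate 2. Islands nearest Pdia4 (1301 bp), Rnf223 (1181 bp) and 9030025P20Rik (1178 bp) had no peak in either replicate.

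GC-rich distal peaks lay closer to annotated transcript starts than other distal peaks, though over 2000 bp away by rule. Their median distance to any annotated start was 9268 bp against 18420 bp. Between 2000 and 5000 bp lay 26.6% of them against 15%, and beyond 50000 bp 5.48% against 21%. Distance made little difference to their values: the medians were 42 and 112 at 2000 to 5000 bp and 49 and 110 beyond 50000 bp. Inside an annotated gene, and thus in an intron, lay 287 of them (32.1%), against 49.7% of all distal peaks. By chromosome they made up from 0.434% of distal peaks on chromosome 3 to 1.5% on chromosome 11.

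Some are close to transcript starts of another annotation. A start in RefSeq lay within 500 bp of 125 GC-rich distal peaks (14.0%, interval 11.8 to 16.4), against 2.14% of all distal peaks. The class with more CpG but lower GC had 8.4% within 500 bp and 15.3% within 2000 bp. The class with high GC but fewer CpG had 4.56% and 11.9%. Within 2000 bp the count for the GC-rich distal peaks was 207 (23.2%, against 5.29% of all distal peaks), so for 687 neither annotation has a start that near. Those 687 had median values of 48 and 112, the same as or 1 below those of all 894. The nearest protein-coding start had a shared peak within 1000 bp of it for 624 (69.8%), against 60.4% of all distal peaks. This was shared with the class of high GC but fewer CpG (70.8%), and the class with more CpG but lower GC had 66.4%.

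The peaks with the highest mean rank over both replicates lay near genes of many functions. The first, with 130 in replicate 1 and 149 in replicate 2, lay 6427 bp upstream of Trappc9, a subunit of a vesicle tethering complex that is imprinted in mouse brain. The second, with 130 and 148, lay 39195 bp upstream of Ptma, a small acidic nuclear protein. The third, with 129 and 147, was 52218 bp from Wnt7b, a secreted Wnt ligand, but 95 bp from a start in RefSeq. Each of these 3 sequences is printed above.

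The other 7 of the 10 highest had values of 120 to 130 in replicate 1 and 145 to 148 in replicate 2. They lay nearest 4931414P19Rik, Ccne1 (cyclin E1, of entry into S phase), Id4 (an inhibitor of bHLH factors in neural progenitors), Map1lc3b (an autophagosome protein), Slc38a2 (an amino acid transporter), Igf2bp3 (an RNA-binding protein of fetal tissues) and Insr (the insulin receptor). The one nearest Id4 lay 67 bp from a RefSeq start, and the one nearest Insr lay in an intron of it. All 10 of the highest overlapped a CpG island.

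CpG content alone did not fix the value. The window with the most CpG, 30 in 150 bp, lay in an intron of Lmx1a, a LIM homeobox gene of midbrain dopaminergic progenitors, 113574 bp from its nearest start, and had values of 62 and 130. Windows with 28 CpG nearest Arhgap32 and Rapgef5 had 96 and 142, and 84 and 134, the former 8 bp from a RefSeq start. The latter lay in an intron of Ptprn2, 362568 bp from the nearest start of Rapgef5 and 2260 bp from another annotated start. A window with 29 CpG in an intron of Srcin1, an inhibitor of Src kinase, had 42 and 114. Another with 29 CpG in an intron of Dnah7b, a dynein heavy chain of cilia, had only 18 and 30, the lowest of these 5 in both replicates. Its hotspots were 87 and 135 bp wide, and it lay 206 bp from a RefSeq start.

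Developmental transcription factor genes were the nearest gene of 147 GC-rich distal peaks (16.4%, interval 14.1 to 19), against 5.3% of all distal peaks. Of the 292 such genes on the autosomes, 87 (29.8%) were nearest to at least 1 of these peaks, against 654 (3.15%) of all 20780 protein-coding genes. Peaks with 8 or more CpG but lower GC content had a like share, 15%, while peaks with high GC but fewer CpG had 6.69%. The intervals of these last 2 shares (13.7 to 16.3 and 4.24 to 9.95) did not overlap. The distance between genes was not adjusted for.

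The peaks near these genes were the weaker ones of the set. Their median values were 34 in replicate 1 and 100 in replicate 2, against 50 and 115 for the 747 nearest other genes, at the same median GC content of 69.3% and the same median of 14 CpG. The quartiles were 22.5 and 54 against 30 and 78 in replicate 1, and 79 and 118 against 93 and 131 in replicate 2, so the distributions overlapped. In whole tissue a site open in fewer cells and a site less open in each cell give the same value and cannot be told apart.

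Orphan islands near developmental factors were, in contrast, more often open. Of 213 orphan islands nearest such a gene 165 (77.5%, interval 71.3 to 82.9) held a shared peak, against 56.2% (53.2 to 59.2) of 1077 nearest other genes. No peak in either replicate was found in 5.63% of the former and 36.1% of the latter. The groups were not compared at like island length or GC content, with which the open share also rose. Of 9 orphan islands nearest a Hox gene, the homeobox genes of hindbrain and trunk, 3 held a shared peak.

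Several factors had a group of these peaks. Ebf3, a factor of neuronal differentiation, and Pax2, a regulator of the midbrain-hindbrain boundary, were nearest to 5 each. The 5 peaks of Ebf3 spanned 13070 bp in 2 hotspots, 3 of them inside the gene, with values of 22 to 86 and 82 to 138. The 5 of Pax2 spanned 78330 bp in 5 hotspots and were weaker, with 17 to 35 and 66 to 115. Bcl11b, Irx5, Lbx1, Neurod2, Pax3 and Uncx had 4 each. The strongest single peak near a developmental factor lay 7512 bp upstream of a start of Nfib, a nuclear factor I gene of brain development, within the gene, with 113 and 146. Those nearest Skor1, a corepressor, and Bcl11b, a zinc-finger factor, followed with 93 and 138, and 94 and 136.

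Of 30 midbrain and isthmus regulators, which overlap the list of developmental factors, 9 were nearest to 23 of these peaks (2.57%, interval 1.64 to 3.84), against 0.666% of all distal peaks. Peaks with 8 or more CpG but lower GC content had 2%. The highest were near Dmbx1, a homeobox gene of the midbrain (81 and 133), Meis2 (80 and 126) and Pax3 (64 and 127). As a check of the tissue, the midbrain and isthmus genes En1, En2, Pax2, Pax5, Otx2 and Wnt1 each had a shared peak within 1000 bp of a start. So had 2 of 4 hindbrain and trunk genes (Hoxb4 and Hoxd9) and 0 of 3 liver genes.

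The other gene groups accounted for fewer peaks. Of 75 signalling ligand and receptor genes 12 were nearest to 18 (2.01%, interval 1.2 to 3.16), against 0.617% of all distal peaks, with the highest nearest Wnt7b, printed above, and Wnt10a, another Wnt ligand (83 and 133, at 174 bp from a RefSeq start). Of 67 axon guidance genes 9 were nearest to 14 (1.57%, interval 0.859 to 2.61, against 1.68%), with the highest in Ephb2, an ephrin receptor (104 and 146), and Unc5a, a netrin receptor (96 and 140). Ephb3 followed (72 and 134).

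Of 40 imprinted genes 4 were nearest to 7 peaks (0.783%, interval 0.315 to 1.61), against 0.374% of all distal peaks, the highest after that of Trappc9 being near Dlk1, a Notch-like ligand (51 and 128), and Cdkn1c, an inhibitor of the cell cycle (52 and 112). Of 91 synaptic and channel genes 6 were nearest to 7 (0.783%, against 1.55%), in introns of Nrxn2, a neurexin (66 and 122), and Grik4, a kainate receptor (59 and 120), and near Shank2 (54 and 118). The last 2 lay 353 and 24 bp from RefSeq starts. Of 23 housekeeping genes Eef2, an elongation factor (83 and 133), and Actb (29 and 100) had 1 each, in all 0.224% (0.0271 to 0.806) against 0.0485%. Of 39 Hox genes Hoxb1 (52 and 127), Hoxc4 (43 and 100) and Hoxc12 (22 and 72) had 1 each, all at least 6414 bp away, in all 0.336% (0.0693 to 0.978) against 0.027%. The intervals for axon guidance, synaptic, imprinted and housekeeping genes held the share of all distal peaks. Those for signalling and Hox genes lay above it, the latter on 3 peaks. For signalling genes, peaks with high GC but fewer CpG had 2.13% (0.86 to 4.33) and peaks with more CpG but lower GC 1.02%. For Hox genes the same 2 classes had 0% and 0.197% (0.0723 to 0.428). So neither the signalling nor the Hox share was particular to the GC-rich distal peaks.

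Outside these lists, 5 peaks each lay nearest 1700001O22Rik, Acot11, Cbx8 (a chromobox protein of Polycomb complexes) and Rps6ka1 (a ribosomal S6 kinase). The 5 nearest Rps6ka1 lay in 2 replicate 2 hotspots, with 83 to 108 in replicate 1 and 130 to 146 in replicate 2. Their lowest values were above those for 1700001O22Rik, Acot11 and Cbx8. Arhgap23, Casz1 and Ccr1 had 4 each. Those of Ccr1 lay within 2070 bp of each other and at least 43101 bp from its start, with values of 16 to 107 and 60 to 142.

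Short motifs were counted as exact matches on either strand in the same 150 bp windows. The rule fixes the base composition, so matches rich in CpG are frequent by construction. The 1195 distal tiles of the same composition that had no peak in either replicate are therefore given beside those of other distal peaks. These tiles met the same limits but held fewer CpG: 412 of them had 8 or 9, against 145 of the 894 peaks. The GC box of SP and KLF factors (GGGCGG) was present in 490 of the 894 windows (54.8%, interval 51.5 to 58.1). It was present in 39.5% (36.7 to 42.3) of the windows without a peak, 4.11% of other distal peaks, 65.2% of peaks of the same composition near starts, and 7.33% of windows 1000 bp to each side. Among the 342 peaks outside islands, with a median of 10 CpG, it was in 45.0% (39.7 to 50.5). That interval overlapped the one of the windows without a peak.

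Several CpG-containing motifs had shares in open and closed windows of this composition whose intervals overlapped. The HES N box (CACGCG) was in 14.5% against 10.9%, the ETS site (CCGGAAG) in 3.47% against 2.43%, and the E2F site (GGCGGGAA) in 2.24% against 1.59%. The core of the NRF1 motif (GCGCATGCG) was in 9 windows (1.01%, interval 0.461 to 1.9) against 0.335%, and in 0.158% of other distal peaks. At a GC limit of 70% its share was 0.248%. The cAMP response element (TGACGTCA) was in 1.23% against 0.502%, and the EGR site (GCGTGGGCG) in 1.01% against 1.92%. The YY1 site (AAGATGGCG) and the BANP or ZBTB33 site (TCTCGCGAG) were in 2 windows each, and each in 0.0837% of the windows without a peak. The intervals overlapped for each of these 8 motifs. The AP-2 site (GCCNNNGGC) was in 26.7% against 19.2%, with intervals that did not overlap. Of the 28 motifs, 20 differed over 1.5-fold in share between GC-rich and other distal peaks, 11 being more and 9 less frequent in the former.

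The 4 motifs next named, picked out after seeing that their shares in open and closed windows were far apart, are a selection and not typical of motifs without CpG. CTCF, the insulator protein, had its motif in 2.57% of the GC-rich distal peaks against 0.0837% of the windows without a peak, and in 4.3% of other distal peaks. The CCAAT motif of NF-Y (CCAATCA) was in 2.46% against 0.167%. The homeodomain core (TAATTA) was in 1.34% against 0.0837%, though other distal peaks had it in 6.35%. The RFX motif (GTTGCCATG) was in 12 of the peaks (1.34%) and in 0 of the 1195 closed windows.

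For other motifs without CpG the 2 comparisons gave different pictures. The E-box CAGATG of proneural bHLH factors was in 7.94% of the GC-rich distal peaks, against 15.8% of other distal peaks and 5.94% of closed windows of the same composition. The NFI motif (TTGGCA) was in 5.15%, against 13.6% and 4.77%, and the AP-1 site (TGANTCA) in 2.01%, against 5.29% and 1.59%. The nuclear receptor motif (AGGTCA) was in 2.91%, against 6.5% and 4.85%. These 4 were less frequent than in other distal peaks, while their intervals overlapped those of the closed windows.

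The SOX site (ACAATGG) was in 1.57%, against 2.64% of other distal peaks and 0.335% of closed windows. The POU octamer (ATGCAAAT) was in 4 windows (0.447%), against 2.23% and 0 of 1195. The TEAD site (ACATTCCA) was in 0.336%, against 0.731% and 0.251%. The E-box CAGCTG was in 16.3%, against 15.3% and 9.96%, and the EBF site (CCCNNGGGA) in 6.15%, against 4.47% and 6.03%, so not every motif of neural factors was less frequent than in other distal peaks.

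Peaks with some of these motifs stood higher within the set. The 22 with the NF-Y motif had median values of 94 and 139.5, against 46 and 112 for the 872 without it. Their median CpG count was also higher, 16.5 against 14. The 23 with CTCF had 76 and 128, the 31 with ETS 73 and 129, and the 62 with the E-box CACGTG 67.5 and 126. The 46 with the NFI motif had 62 and 124, and the 130 with the HES N box 53 and 120. Not all went this way: the 71 with the E-box CAGATG had 39 and 111, against 48 and 113 without it. The 490 with a GC box had 49 and 115, against 43 and 110 without. The AP-2 site made no such difference, with 47 and 113 against 48 and 113. A match is a description of the sequence and no measure of binding.

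**Figure D5:**
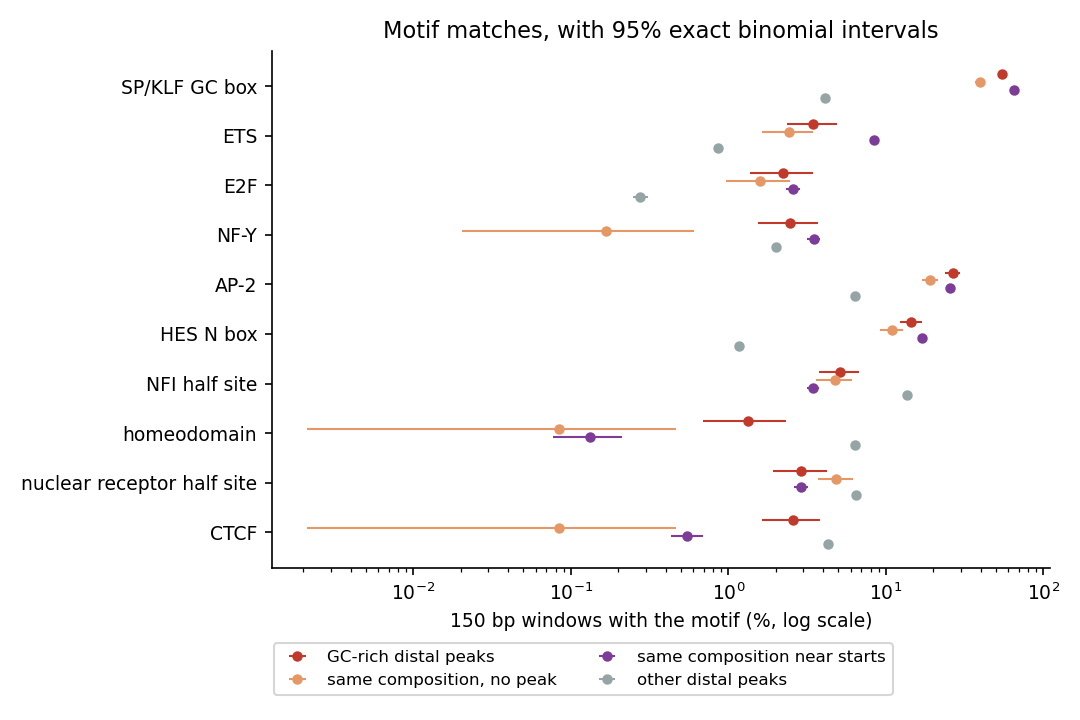
Share of 150 bp windows with each of 10 motifs (%, log axis) in GC-rich distal peaks (red), distal tiles of the same composition without a peak (orange), peaks of that composition within 1000 bp of a start (purple) and other distal peaks (grey). Horizontal bars are 95% exact binomial intervals, and the red and orange points lie furthest apart for NF-Y, CTCF and the homeodomain core.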

How the data were processed

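DNase-seq of mouse midbrain at day 14.5 was deposited as a peak list and a hotspot list for each of 2 biological replicates, on mm10 per the labels. Neither the aligner nor the caller is given in the sources used here. The deposited peak value is a signal, a whole number of at most 150, not scaled to depth, and all but 2 peaks are 150 bp wide. The deposited hotspot lists give −log10 q from 1.3 to 6, or a cap of 100. Read depth is unknown, so no precision follows from it. Replicates are separate biosamples per the labels.

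Sequence was GRCm38.p6 and annotation GENCODE M21, with starts of RefSeq as a second set. As a check of the build, 99.9% of 27907 start codons read ATG. The gene with the closest protein-coding start was taken as nearest. Each shared peak took the value of the replicate 1 peak that overlapped it most. Islands were scored +17 for a CpG and −1 for any other base. Percentile ranks are within the 111233 shared autosomal distal peaks outside exons, except under alternatives that change this set. Motif and island shares have exact binomial (Clopper-Pearson) 95% intervals for counting error only. The steps were tested on simulated sequence. The software was numpy 2.4.6, numba 0.67.0, scipy 1.17.1, pandas 2.3.3 and matplotlib 3.10.9 under Python 3.11.15.

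The members, gene lists and motifs were chosen with earlier results of these data known. Named were the 10 peaks with the highest mean rank, the 5 with the most CpG, up to 3 per gene list, the 10 genes nearest to the most peaks (ties in alphabetical order), and the 5 longest orphan islands with and without a shared peak. Named motifs were those over 1.5-fold more or less frequent than in other distal peaks. NF-Y, RFX, EBF and the E-box CAGCTG, as well as RefSeq starts, tiles, windows without a peak and the comparison sequence were chosen after values were seen. One further marker list of the tissue check is not reported here. Alternatives changed the limits of the rule, the start set, the overlap, the island definition and the replicate used.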

Additional observations from a re-analysis of the deposited data

How the results depend on the processing

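Of 83 recomputed values, 60 stayed close to the reported one, meaning within 1.5 times for a count, 1 SD between replicates for a rank, and the 95% interval for a share. The number of peaks (894) became 1799 at 60% GC, 403 at 70% and 549 with composition in 300 bp, and 687 without peaks within 2000 bp of a RefSeq start, an alternative chosen after seeing the data. The mean over replicates of the median percentile rank (92.2) became 88.3 at 60% GC, 89.5 with exons kept and 88.2 with hotspots at −log10 q of 10 or more in both replicates. The share in a CpG island (61.7%) became 43.9% at 60% GC, 79.7% at 70%, 54.1% at 6 or more CpG, 79.4% at 12 or more, 65.1% over 1000 bp from a start, 65.8% with protein-coding starts only, 68.5% with exons kept, 85.1% with composition in 300 bp, 56.8% away from RefSeq starts and 25.5% for islands of 500 bp or more. The share nearest a developmental transcription factor gene (16.4%) became 13% with hotspots at −log10 q of 10 or more, that is at the cap. The NRF1 share (1.01%) became 0.248% at 70% GC. The open share of orphan islands (59.7%) became 76.5% for islands of 500 bp or more and 8.65% in unmasked sequence. Apart from settings that change the composition or island definition itself, the cause was not tested. With 1 replicate left out in turn, the number ranged from 942 to 1070, the rank from 94.9 to 97.5, the island share from 60.4% to 60.5%, the developmental share from 15.8% to 17.7%, the NRF1 share from 0.849% to 0.935% and the open share from 62.6% to 66.5%. Peaks then did not have to be shared. The ranks were thus among all distal peaks of the replicate kept, unlike the 92.2, which was among shared peaks. No paired analysis was possible because there was 1 group of 2 samples. Unknown depth limits what a missing peak can show.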

Other observations

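Peaks of this composition that the rule leaves out had these values. On chromosome X, 38 of 2329 shared distal peaks outside exons (1.63%) qualified on composition, with medians of 38 and 99.5. Of distal autosomal shared peaks that overlapped an exon, 393 qualified, with medians of 33 and 99, and 329 of them overlapped a CpG island. In replicate 2 alone 176 were found, with a median of 65 and a highest value of 142, and in replicate 1 alone 76, with a median of 13 and a highest value of 74. The lowest-ranked GC-rich distal peaks, chosen after their values were seen, lay nearest Gm5796 (7 in replicate 1 and 27 in replicate 2), Grxcr2 (7 and 28, 72.0% repeat-masked) and Nat8f4 (6 and 31).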
